A study of Mus musculus with 12 samples.

Results

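The 10 genes described here are the commonly used markers of mural cells, the pericytes and smooth muscle cells that wrap blood vessels: Notch3, Pdgfrb, Rgs5, Kcnj8, Abcc9, Cspg4, Mcam, Acta2, Myh11 and Des. They were chosen by symbol, and each of the 10 was found as a row of the 16670 genes listed in the deposited table. RNA came from the inguinal fat, a subcutaneous white depot, of female C57BL/6 mice, either Kdm5c+/+ (wild type) or Kdm5c+/-, and was sequenced. Kdm5c encodes a histone demethylase and lies on the X chromosome. Collagenase-treated fat from pools of 2 mice was spun into mature adipocytes, which float, and the stromal vascular pellet, a mixture of vascular, progenitor and immune cells. Each genotype label and fraction held 3 libraries, 12 in 4 groups, so a replicate is a pool of 2 mice. Libraries of the 2 fractions with the same label and number were taken as 1 pool, which gives 6 pools. The labels give no age, and name no transgene or treatment.

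Pericytes sit on capillaries within the vessel's basement membrane, while smooth muscle cells form contractile layers around arterioles, arteries and veins. Endothelial cells recruit both by secreting the growth factor Pdgfb, which binds the receptor Pdgfrb, and instruct them through Jagged ligands that activate the receptor Notch3. In fat, mural cells lie next to the vessels that run between adipocytes, and cells that express Pdgfrb have been described as one source of new adipocytes.

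Library depth ranged from 21836878 to 29434125 reads, so a level of 3 reads corresponded to 0.102 to 0.137 CPM, counts scaled to a library total of 1000000. Levels of Kdm5c itself overlapped between the labels in both fractions. It averaged 178 ± 2.99 CPM in wild-type and 169 ± 18.4 CPM in Kdm5c+/- mature adipocyte libraries (SD, n = 3), and 185 ± 4.09 against 186 ± 9.89 CPM in the stromal vascular libraries (SD, n = 3). The level therefore does not separate the genotypes, the altered exons are not named in the labels, and Kdm5c+/- below means the libraries labelled so. The fractions matched their names: the summed level of 12 adipocyte markers was 40771 to 56884 CPM in mature adipocyte and 4662 to 8486 CPM in stromal vascular libraries, and that of 12 endothelial markers 139 to 398 against 7543 to 10114 CPM.

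Taken per length, in CPM per kilobase of exon, Rgs5 and Acta2 were the most abundant of the 10 in the stromal vascular fraction. Rgs5 stood at 190.5 ± 33.4 and Acta2 at 188 ± 55.1 CPM per kb (SD, n = 6), a difference well inside the spread. Pdgfrb followed at 137 ± 27.8, Notch3 at 94.0 ± 18.0, Myh11 at 75.3 ± 16.2, Mcam at 72.8 ± 11.2 and Abcc9 at 63.3 ± 9.28 CPM per kb (SD, n = 6). The last 3 of these lay within one another's spread. Kcnj8 at 44.9 ± 14.8, Des at 24.0 ± 3.55 and Cspg4 at 10.4 ± 2.43 CPM per kb (SD, n = 6) closed the order. The order in mature adipocytes was different. Mcam led at 222 ± 21.5 CPM per kb, followed by Acta2 at 57.1 ± 48.5 and Cspg4 at 11.6 ± 4.19 (SD, n = 6). Every other member was below 6 CPM per kb there, and Myh11 was lowest at 1.08 CPM per kb.

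**Figure D1:**
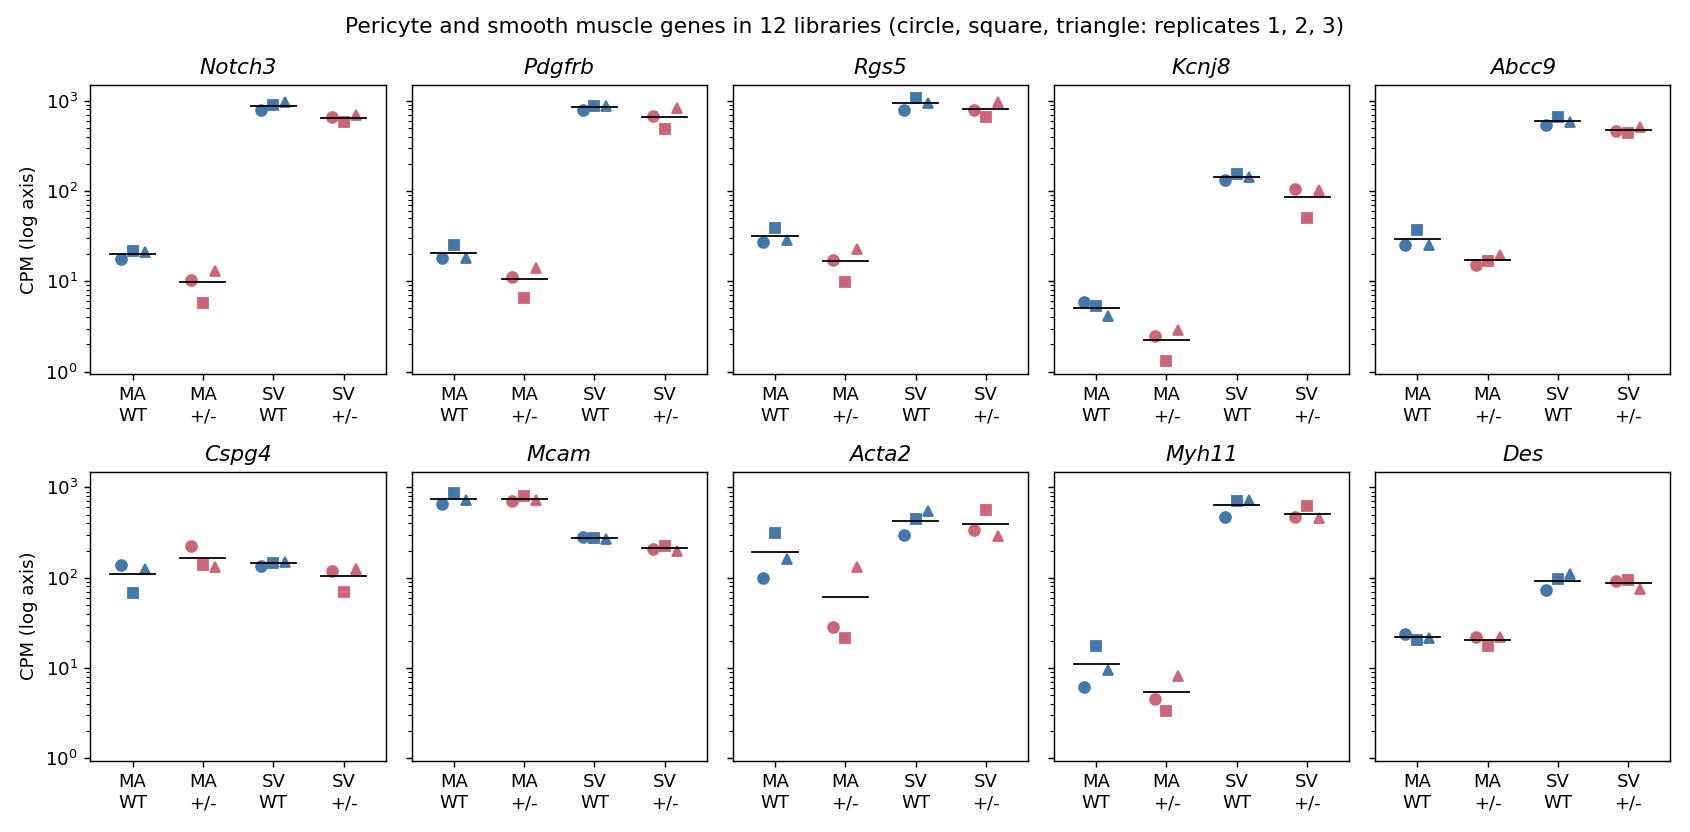
Level of each of the 10 genes in CPM on a log axis, with 1 symbol per library (circle, square and triangle for replicates 1, 2 and 3) in the 4 groups (MA, mature adipocytes; SV, stromal vascular cells; WT, wild type; +/-, labelled Kdm5c+/-). Notch3 lay at 5.72 to 21.5 CPM in mature adipocytes and 575 to 956 CPM in stromal vascular libraries, whereas Mcam was higher in mature adipocytes and Cspg4 overlapped between the fractions.

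The signalling genes of mural cells were scarce among mature adipocytes. Notch3, the Notch receptor of arterial smooth muscle and pericytes (chromosome 17, 32120820 to 32166852, minus strand, GRCm38), stood at 17.7, 21.5 and 21.1 CPM in the wild-type and 10.4, 5.72 and 13.2 CPM in the Kdm5c+/- mature adipocyte libraries. In the stromal vascular fraction it stood at 785, 895 and 956 CPM in wild type and 663, 575 and 689 CPM in Kdm5c+/-. In both fractions every wild-type library was above every Kdm5c+/- library. The difference between fractions, mature adipocyte minus stromal vascular over both genotypes, was -5.67 ± 0.15 on the log2(CPM + 1) scale (SE, limma, adjusted p = 2.08e-11).

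Pdgfrb, the receptor through which endothelial Pdgfb acts, stood at 17.9, 25.4 and 18.2 CPM in wild-type and 11.2, 6.56 and 14.1 CPM in Kdm5c+/- mature adipocytes. Its stromal vascular levels were 786, 868 and 876 CPM in wild type and 670.4, 480.0 and 827 CPM in Kdm5c+/-. The labels separated in mature adipocytes and overlapped in the stromal vascular fraction, where Kdm5c+/- replicate 3 was above wild-type replicate 1. Between fractions Pdgfrb differed by -5.58 ± 0.18 (SE, limma on log2(CPM + 1), adjusted p = 6.72e-11).

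Rgs5, which shortens G protein signalling and is among the most abundant pericyte transcripts (chromosome 1, 169655501 to 169695813, plus strand), stood at 27.2, 38.5 and 28.5 CPM in wild-type and 17.2, 9.85 and 22.9 CPM in Kdm5c+/- mature adipocytes. Its stromal vascular levels were 793, 1068 and 934 CPM in wild type and 779, 651 and 971 CPM in Kdm5c+/-. As with Pdgfrb, the labels separated in mature adipocytes and overlapped in stromal vascular cells. Rgs5 differed between fractions by -5.21 ± 0.18 (SE, limma on log2(CPM + 1), adjusted p = 1.53e-10). The ratio of Rgs5 to Pdgfrb in CPM varied little from library to library, from 1.50 to 1.63 over the 6 mature adipocyte libraries and from 1.01 to 1.36 over the 6 stromal vascular libraries, so the 2 fractions did not overlap in it.

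Kcnj8 and Abcc9 encode the pore and the regulatory subunit of the ATP-sensitive potassium channel of mural cells, known as Kir6.1 and SUR2. The genes are neighbours on the minus strand of chromosome 6 (GRCm38), Kcnj8 at 142564837 to 142571614 and Abcc9 at 142587862 to 142702315, with 16247 bases between them. Their promoters are shown because the subunits are made in the same cells from adjacent genes, with TGGGAA, the core letters bound by the Notch effector Rbpj, in capitals where it occurs on either strand. Each covers 300 bases, from 250 before to 50 after the RefSeq start site (GRCm38.p6), on the minus strand of chr6:142571565-142571864 for Kcnj8 and chr6:142702225-142702524 for Abcc9.
Kcnj8: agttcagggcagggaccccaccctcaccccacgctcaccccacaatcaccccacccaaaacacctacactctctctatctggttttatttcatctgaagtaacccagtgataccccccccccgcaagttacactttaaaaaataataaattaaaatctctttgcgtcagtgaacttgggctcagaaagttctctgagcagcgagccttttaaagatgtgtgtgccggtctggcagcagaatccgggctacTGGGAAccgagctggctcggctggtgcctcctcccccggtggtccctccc
Abcc9: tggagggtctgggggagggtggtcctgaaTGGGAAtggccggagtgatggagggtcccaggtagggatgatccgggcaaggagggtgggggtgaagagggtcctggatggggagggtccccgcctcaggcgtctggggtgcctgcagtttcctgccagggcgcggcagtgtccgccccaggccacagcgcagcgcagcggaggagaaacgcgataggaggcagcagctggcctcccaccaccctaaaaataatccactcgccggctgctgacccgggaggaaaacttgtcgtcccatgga
TGGGAA began at the start site itself, position 1, in Kcnj8 and at position -221 in Abcc9. The same letters occurred in 25.6% of the 32851 RefSeq promoters of that length and in 3 of the 8 members with an entry, so the match is a description and no sign of binding.

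Kcnj8 was the least abundant member by CPM in mature adipocytes, at 5.87, 5.30 and 4.09 CPM in wild type and 2.46, 1.32 and 2.86 CPM in Kdm5c+/-. In stromal vascular libraries it stood at 131, 155 and 143 CPM in wild type and 106, 50.05 and 101 CPM in Kdm5c+/-. The labels did not overlap in either fraction, and Kdm5c+/- replicate 2 was lowest in both. Between fractions Kcnj8 differed by -4.64 ± 0.19 (SE, limma on log2(CPM + 1), adjusted p = 5.29e-10).

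Abcc9 stood at 25.2, 36.7 and 25.3 CPM in wild-type and 15.2, 16.6 and 19.7 CPM in Kdm5c+/- mature adipocytes. Its stromal vascular levels were 544, 652 and 575 CPM in wild type and 464, 439 and 507 CPM in Kdm5c+/-. These groups did not overlap in either fraction. Abcc9 was -4.51 ± 0.10 between fractions (SE, limma on log2(CPM + 1), adjusted p = 4.59e-12). The channel subunits did not keep one ratio across libraries. Abcc9 was 4.01 to 5.00 times Kcnj8 in CPM in 5 of the 6 stromal vascular libraries and 8.76 times in Kdm5c+/- replicate 2, and the mature adipocyte library of the same pool also had the highest ratio of its fraction, 12.55 against 4.30 to 6.92 in the other 5. The paralogous pair that forms the channel of pancreatic beta cells, Kcnj11 and Abcc8, was little expressed: Abcc8 averaged 0.382 CPM in mature adipocytes and 2.71 CPM in stromal vascular cells, and Kcnj11 was too low to be tested. The stromal vascular mean of Abcc8 rests in good part on Kdm5c+/- replicate 2, with 190 reads against 18 to 61 in the other 5.

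The surface markers Cspg4 and Mcam did not share the pattern. Cspg4, the NG2 proteoglycan of pericytes (chromosome 9, 56865033 to 56899870, plus strand), stood at 138, 68.0 and 125 CPM in wild-type and 224, 139.8 and 132 CPM in Kdm5c+/- mature adipocytes. Its stromal vascular levels were 136, 147 and 149 CPM in wild type and 119.7, 70.1 and 126 CPM in Kdm5c+/-. The fractions overlapped, with a difference of 0.10 ± 0.21 (SE, limma on log2(CPM + 1), 95% interval -0.36 to 0.56, adjusted p = 0.646). That interval leaves room for a higher or a lower level in mature adipocytes, and on whole reads edgeR's quasi-likelihood test gave 0.61 (adjusted p = 0.0186) and DESeq2 0.53 (adjusted p = 0.0178) toward mature adipocytes.

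Mcam, the adhesion molecule CD146 of pericytes and endothelium (chromosome 9, 44134469 to 44142727, plus strand), was the member with a higher level in mature adipocytes. It stood at 660.4, 856 and 719 CPM in wild-type and 704, 802 and 719 CPM in Kdm5c+/- mature adipocytes, against 283, 276 and 272 CPM and 208, 227 and 198 CPM in the stromal vascular libraries. Every mature adipocyte library was above every stromal vascular library, and within the stromal vascular fraction every wild-type library was above every Kdm5c+/- library. The difference between fractions was 1.61 ± 0.07 (SE, limma on log2(CPM + 1), adjusted p = 8.31e-10). In mature adipocyte libraries Mcam alone was 166.1% to 578.5% of the summed level of the 12 endothelial markers. In the stromal vascular libraries it was 2.14% to 3.00% of that sum.

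The contractile genes are Acta2, smooth muscle alpha actin, Myh11, the smooth muscle myosin heavy chain, and Des, the intermediate filament protein desmin. Serum response factor drives many contractile genes through the CArG box. The promoter of Acta2 is shown because it was the one member of the 8 with an entry that held a CArG-like element, with up to 1 G or C inside its core. The strand shown is the minus strand of chr19:34255324-34255623 (GRCm38.p6, RefSeq), and capitals mark the CArG-like elements and the Rbpj core letters.
Acta2: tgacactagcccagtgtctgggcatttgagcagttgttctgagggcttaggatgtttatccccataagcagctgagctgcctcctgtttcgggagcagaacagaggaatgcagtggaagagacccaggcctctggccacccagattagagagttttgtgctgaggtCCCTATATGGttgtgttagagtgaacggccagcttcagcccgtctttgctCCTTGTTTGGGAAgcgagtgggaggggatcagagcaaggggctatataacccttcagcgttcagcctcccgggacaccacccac
CCCTATATGG began at position -84 and CCTTGTTTGG at position -34, and the Rbpj core letters at -27 overlapped the latter by 3 bases. CArG-like elements on either strand occurred in 9.98% of the 32851 promoters, and exact CArG boxes in 1.63% and in 0 of the 8 members, which says only that these letters are not in this window.

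Acta2 (chromosome 19, 34241090 to 34255590, minus strand) was the most variable member in mature adipocytes, at 99.2, 311 and 161 CPM in wild type and 28.2, 21.8 and 131 CPM in Kdm5c+/-. In the stromal vascular fraction it stood at 300.3, 444 and 546 CPM in wild type and 341, 557 and 287 CPM in Kdm5c+/-. Labels overlapped in both fractions, and the highest mature adipocyte library reached into the stromal vascular range. The fractions differed by -2.19 ± 0.43 (SE, limma on log2(CPM + 1), adjusted p = 0.000467).

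Myh11 (chromosome 16, 14194535 to 14291372, minus strand) stood at 6.20, 17.5 and 9.502 CPM in wild-type and 4.55, 3.36 and 8.27 CPM in Kdm5c+/- mature adipocytes. Its stromal vascular levels were 469, 702 and 721 CPM in wild type and 468, 617 and 456 CPM in Kdm5c+/-. Myh11 overlapped between the labels in both fractions and showed the largest fraction difference of the 10 members, -6.09 ± 0.24 (SE, limma on log2(CPM + 1), adjusted p = 4.23e-10).

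Acta2 and Myh11, both markers of the same contractile cells, thus parted between fractions. Acta2 was 0.628 to 0.902 times Myh11 in CPM in the 6 stromal vascular libraries. In mature adipocytes the ratio was 16.0, 17.7 and 16.9 in wild type and 6.19, 6.48 and 15.9 in Kdm5c+/-, with Kdm5c+/- replicate 3 close to wild type. Tagln, the smooth muscle actin-binding protein SM22, chosen here after its values were seen, parted from Myh11 too. It stood at 1.40 to 5.41 times Myh11 in mature adipocytes and 0.344 to 0.535 times in stromal vascular cells. Other smooth muscle genes did not part from Myh11. As a median percent of the stromal vascular level, Myh11 was at 1.32%, Lmod1 at 1.12%, Tpm2 at 1.84%, Cnn1 at 2.33% and Tagln at 14.2%. The 20 smooth muscle partners ran from 0% to 140%, with a median of 4.21%. Skeletal muscle in the adipocyte layer, where Acta1 shares near-identical sequence with Acta2, can be set beside the ratio of Acta2 to Myh11. There 9 of 11 skeletal muscle genes were below 1 CPM in all 6 mature adipocyte libraries. Myh2 was at 0 reads in each, while Acta1 made up most of their sum. Acta1 stood at 29.5, 86.8 and 47.5 CPM in wild-type and 25.2, 47.5 and 29.3 CPM in Kdm5c+/- mature adipocytes, highest in wild-type replicate 2, as Acta2 was. It passed as higher in mature adipocytes (3.68 ± 0.36, SE, limma, adjusted p = 1.27e-06). Of the 7 skeletal muscle genes tested, 2 passed as higher, Acta1 and Tnnc2, and 5 as lower. The part of Acta1 or of skeletal muscle in the Acta2 level was not tested.

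**Figure D2:**
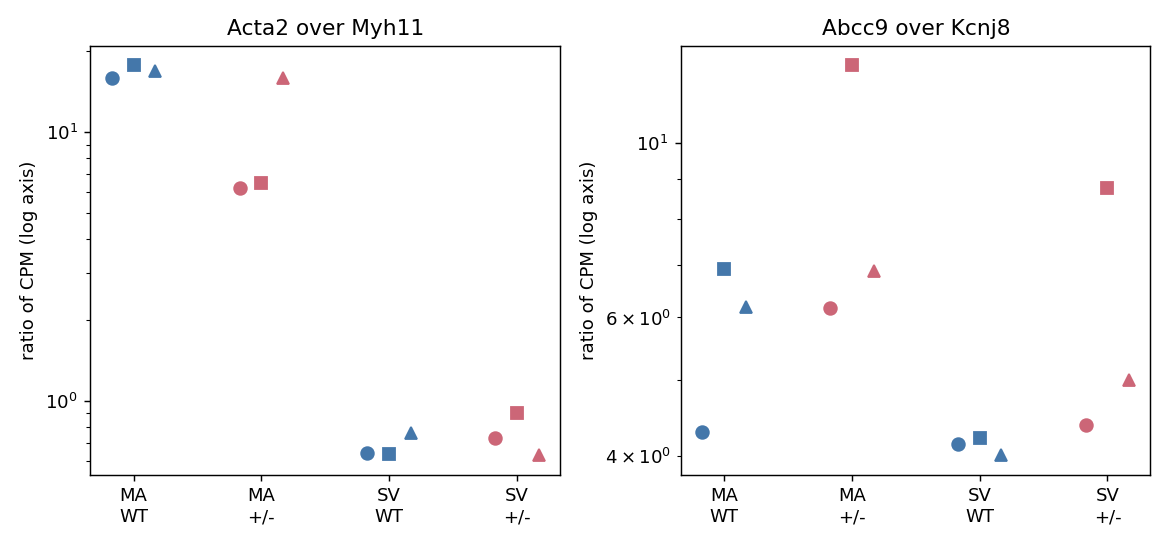
Ratio of CPM, on log axes, of Acta2 to Myh11 and of Abcc9 to Kcnj8 in each library, by group, with symbols as in the plot of levels. Acta2 exceeded Myh11 at least 6.19 times in mature adipocytes and was below it in all 6 stromal vascular libraries, and Kdm5c+/- replicate 2 had the highest ratio of Abcc9 to Kcnj8 in both fractions.

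Des (chromosome 1, 75360329 to 75368579, plus strand) varied little in mature adipocytes, at 23.8, 20.6 and 21.6 CPM in wild type and 22.0, 17.7 and 21.8 CPM in Kdm5c+/-. It stood at 73.9, 96.2 and 109 CPM in wild-type and 91.0, 94.98 and 75.2 CPM in Kdm5c+/- stromal vascular libraries. The labels overlapped in both fractions, and the fraction difference was -2.02 ± 0.10 (SE, limma on log2(CPM + 1), adjusted p = 1.91e-09). An antisense gene listed in the table, Gm15179, overlaps Des, and whether strand was used in counting is not given in the sources used here, so reads of the pair may not be separated.

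Counted over the comparison, 8 of the 10 members were lower and 1, Mcam, was higher in mature adipocytes, and 9 of 10 passed the test against 87.8% of the 14193 genes tested. Lower levels were called for 59.1% of all genes and higher levels for 28.7%, so the number called is close to the background. edgeR and DESeq2 called Cspg4 as well, 10 of 10 members beside 86.0% and 86.7% of all genes. The members' median difference was -4.58 against -0.45 for all genes. On other scalings the median of all genes moved by 0.37 to 0.53 upward while the same 8 members stayed lower and Mcam higher, and called genes split 5721 higher to 6550 lower with median-of-ratios scaling, 6612 to 5776 with quantile normalization, 6063 to 6145 with edgeR and 5768 to 6530 with DESeq2, against 4072 to 8394 here. In bulk libraries fewer cells of a type and less RNA per cell cannot be told apart.

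Expressed as the mature adipocyte level in percent of the stromal vascular level of the same pool, 6 members kept small and similar shares. The medians over the 6 pools were 1.32% for Myh11, 1.89% for Pdgfrb, 2.06% for Notch3, 2.704% for Rgs5, 2.84% for Kcnj8 and 4.14% for Abcc9. These stand beside medians of 3.261% over the 12 endothelial markers, 1.59% over 10 macrophage markers and 1.16% over 12 progenitor markers. The remaining members stood higher, with Des at 22.8% (range 18.7% to 32.2%), Acta2 at 31.2% (3.91% to 70.1%), Cspg4 at 103.1% (46.3% to 199.4%) and Mcam at 324.5% (233.5% to 362.9%). For 5 members, Notch3, Pdgfrb, Rgs5, Kcnj8 and Abcc9, each of the 3 Kdm5c+/- pools had a lower share than each of the 3 wild-type pools, as did 9.63% of 14128 genes. For Cspg4 and Mcam each Kdm5c+/- pool had a higher share, as did 8.56% of those genes.

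**Figure D3:**
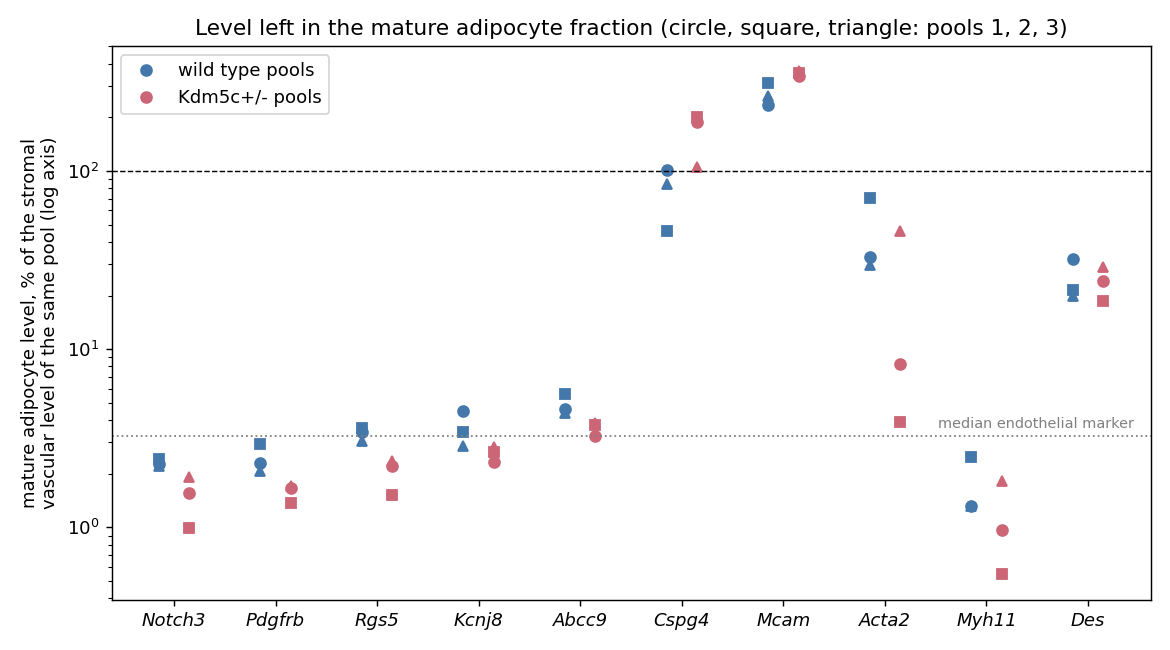
Mature adipocyte level as a percent of the stromal vascular level of the same pool, on a log axis, for each gene, with 1 symbol per pool (circle, square and triangle for pools 1, 2 and 3) and colour by genotype label. Abcc9, Kcnj8, Rgs5, Notch3, Pdgfrb and Myh11 lay below 6%, Des and Acta2 between 3.91% and 70.1%, and Mcam at 233.5% or more.

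Most other genes of mural cells were lower in mature adipocytes too. Of 20 further smooth muscle genes, 18 passed as lower and 0 as higher in mature adipocytes, with a median of -2.99, beside 59.1% of all genes lower, 28.7% higher and a median of -0.45. Synm, the intermediate filament protein synemin, was at -4.57, Tpm2, a tropomyosin, at -5.25, and Myocd, the coactivator of serum response factor, at -2.90. Myocd had 0 to 2 reads in each mature adipocyte library, so its value depends on the pseudocount and ran from -7.08 to -2.16 over the alternatives. Of 18 further pericyte genes, 15 passed as lower (median of the list -4.35), such as the angiotensin receptor Agtr1a at -5.17 and the transcription factor Tbx18 at -4.06. Like Mcam, 3 of the 18 passed as higher: Art3 at 1.27, the endothelial survival factor Angpt1 at 1.70 and the adrenergic receptor Adra1a at 4.02.

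Of 16 Notch pathway genes around Notch3, 16 passed as lower in mature adipocytes with a median of -3.31, beside 59.1% of all genes and a median of -0.45. The ligand Jag2 was at -4.67, the receptor Notch4, mainly endothelial, at -4.66, and the targets Hey1 and Hey2 at -4.20 and -2.66, Hey2 running from -4.14 to -1.57 over the alternatives. Among the PDGF genes, the ligand of Pdgfrb, Pdgfb, was lower at -4.68, Pdgfd at -1.97 and the alpha receptor Pdgfra at -6.48. Pdgfc, a ligand of the alpha receptor, was higher at 1.43 in mature adipocytes. The second regulatory subunit Abcc8 was lower at -1.16, a call that was lost with quantile normalization (-0.11, limma, adjusted p = 0.718). With 8 to 11 reads in each mature adipocyte library, its value ran from -2.26 to -0.11 over the alternatives.

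The genotype comparison asks whether libraries labelled Kdm5c+/- differ from wild type in the same fraction. In mature adipocytes 5 members stood lower in every Kdm5c+/- library than in every wild-type library: Notch3, Pdgfrb, Rgs5, Kcnj8 and Abcc9. Such a separation toward lower levels occurred in 12.6% of all genes tested, and toward higher levels in 9.44%, where no member was found. The fitted differences, Kdm5c+/- minus wild type, were -1.04 ± 0.27 for Notch3, -0.94 ± 0.23 for Kcnj8, -0.93 ± 0.27 for Pdgfrb, -0.93 ± 0.29 for Rgs5 and -0.72 ± 0.17 for Abcc9 on log2(CPM + 1) (SE, limma, adjusted p = 0.275, 0.273, 0.288, 0.293 and 0.273). None passed the threshold, and Rgs5 moved to -0.62 without Kdm5c+/- replicate 2. That library was the lowest for Notch3, Kcnj8 and Pdgfrb too, so their differences are also smaller without it.

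Among the contractile genes of mature adipocytes, Acta2 was at -1.95 ± 0.71 (SE, limma, adjusted p = 0.311), with a 95% interval from -3.65 to -0.25, and Myh11 at -0.88 ± 0.40 (adjusted p = 0.359). Kdm5c+/- replicate 3, at 131 CPM of Acta2 and 8.27 CPM of Myh11, lay inside the wild-type range, and Myh11 moved to -0.52 without wild-type replicate 2. Des was at -0.10 ± 0.11 and Mcam at -0.00 ± 0.13 (SE, limma, adjusted p = 0.681 and 0.999), the Mcam interval running from -0.31 to 0.31. The sign of Mcam turned with the scaling, to 0.04 with median-of-ratios, edgeR and DESeq2. Cspg4 leaned the other way at 0.60 ± 0.31 (adjusted p = 0.401), and moved to 0.29 without wild-type replicate 2.

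Over the 10 members the median genotype difference in mature adipocytes was -0.91, against -0.03 for all genes, and 9 of 10 were negative, as were 56.9% of all genes. With limma 0 of 10 members and 0% of 11913 genes were called. At an unadjusted p below 0.05 there were 6 members, all lower, where 9.01% of all genes were lower by that measure. edgeR called 0 members and 0 genes. DESeq2 called 3 members, Abcc9 at -0.72 (adjusted p = 0.0204), Notch3 at -1.01 (adjusted p = 0.0275) and Kcnj8 at -1.17 (adjusted p = 0.0317), and 2.10% of all genes, 1.05% as lower.

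Endothelial markers moved with these values, and the adipocyte marker sum moved the other way. The summed level of the 12 endothelial markers was 314 to 398 CPM in wild-type and 139 to 255 CPM in Kdm5c+/- mature adipocyte libraries. Of these genes 9 were separated downward, beside 12.6% of all genes, and none was at 0. The adipocyte marker sum was 40771 to 41481 against 46505 to 56884 CPM. Of the 12 adipocyte genes 7 were separated upward, beside 9.44% of all genes, and their median difference was 0.29. Adipoq was at 0.12 and Pparg at 0.009, and 3 were negative: Lep at -0.77, Slc2a4 at -0.15 and Plin1 at -0.005. Most other non-adipocyte lists leaned the same way as the endothelial one, beside 56.9% of all genes negative. Negative were 12 of 12 progenitor, 9 of 10 macrophage, 5 of 5 Schwann cell, 2 of 2 skeletal muscle and 1 of 1 lymphocyte genes tested. The skeletal muscle genes were Acta1 and Tnnc2, and the lymphocyte gene was Ptprc. The other genes of these lists were too low to be tested, so the counts do not stand for those cell types. Of the mammary list only Oxtr and Trp63 were tested, with 0 of 2 negative (median 0.28). Both were higher in mature adipocytes, at medians of 1266.3% and 644.9% of the stromal vascular level. The other 8 mammary genes were below 1 CPM in all 6 mature adipocyte libraries, so these values do not show a change of mammary cells. The part of all these markers in the difference of the mural genes was not tested. Taken as a percent of the endothelial sum of its own library, Notch3 overlapped between the labels, at 4.46% to 6.73% in wild type and 4.13% to 5.17% in Kdm5c+/-, and so did Pdgfrb, Rgs5, Abcc9, Acta2 and Myh11. Kcnj8 did not overlap, at 1.30% to 1.50% against 0.953% to 1.12%, and 0.218% of all genes separated downward by this measure. The gap is small for so few reads: wild-type replicate 3 stood at 1.30% with 106 reads of Kcnj8. Kdm5c+/- replicate 3 stood at 1.12% with 73 reads. Cspg4, Mcam and Des separated upward, 3 members where 74.5% of all genes did, with the endothelial sum itself lower in every Kdm5c+/- library.

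**Figure D4:**
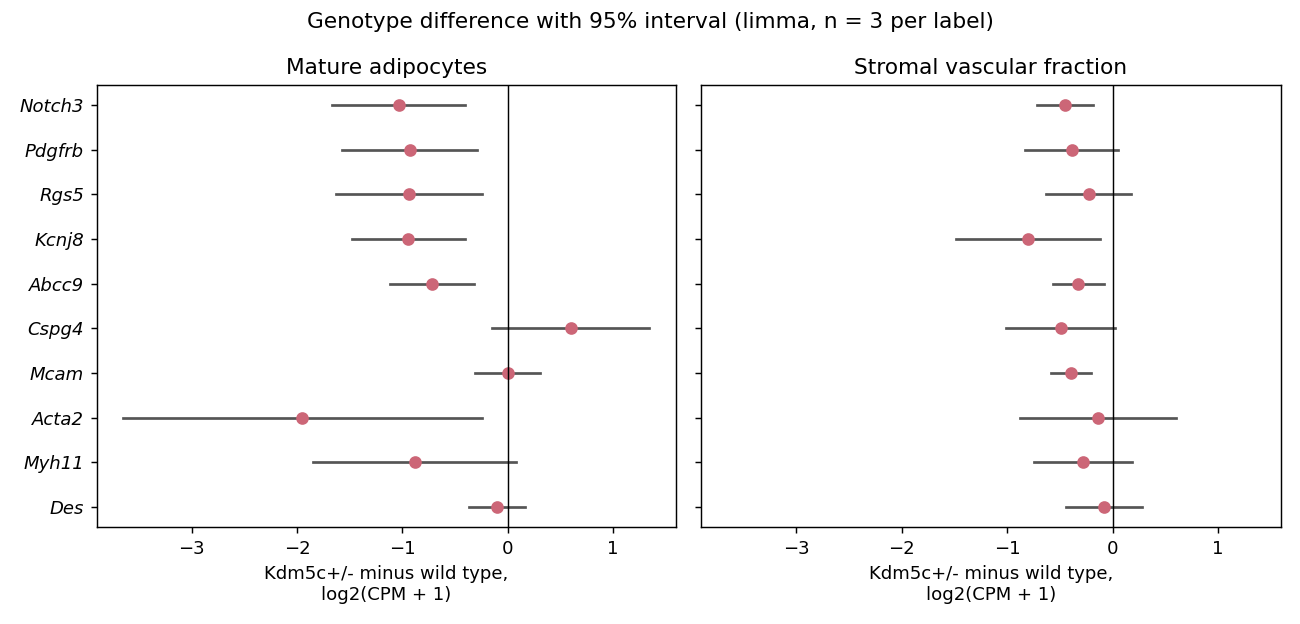
Difference of Kdm5c+/- minus wild type on the log2(CPM + 1) scale for each gene in mature adipocytes and in stromal vascular cells, with the 95% interval of limma (n = 3 libraries per label). In mature adipocytes the intervals of Notch3, Pdgfrb, Rgs5, Kcnj8, Abcc9 and Acta2 lie below 0, and none of the 10 genes passed the adjusted threshold in either fraction.

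In stromal vascular cells all 10 members had a negative genotype difference, as did 59.4% of all genes. Notch3, Kcnj8, Abcc9, Cspg4 and Mcam were lower in every Kdm5c+/- than in every wild-type library, 5 members where 9.74% of all genes separated downward and 3.74% upward. Mcam was at -0.39 ± 0.08, Notch3 at -0.45 ± 0.12 and Abcc9 at -0.33 ± 0.10 (SE, limma on log2(CPM + 1), adjusted p = 0.617 for each). Kcnj8 had the largest difference of the 10 at -0.80 ± 0.28 (adjusted p = 0.634), which rests in good part on Kdm5c+/- replicate 2: without it the value was -0.46. The same library set the size for Pdgfrb, at -0.39 ± 0.19 (adjusted p = 0.661) and -0.18 without it, and for Cspg4, at -0.49 ± 0.22 (adjusted p = 0.652) and -0.22 without it.

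Rgs5 at -0.23 ± 0.17 and Myh11 at -0.28 ± 0.20 overlapped between the labels (SE, limma, adjusted p = 0.750 and 0.732). Rgs5 ran from -0.38 without Kdm5c+/- replicate 3 to -0.09 without replicate 2, and Myh11 from -0.48 without wild-type replicate 1 to -0.17 without wild-type replicate 3. Acta2 at -0.14 ± 0.31 and Des at -0.08 ± 0.15 overlapped too (adjusted p = 0.932 and 0.914), and both turned positive without wild-type replicate 3 (0.05 and 0.04) or without Kdm5c+/- replicate 3 (0.06 and 0.02). The members' median was -0.36, against -0.03 for all genes. With limma 0 of 10 members passed, against 0.00725% of 13792 genes, which is 1 gene, the ribosomal protein gene Rps4l. At an unadjusted p below 0.05 there were 4 members, all lower, beside 5.50% of all genes. edgeR called 0 members and 1 gene, and DESeq2 called 1 member, Mcam at -0.35 (adjusted p = 0.0144), beside 0.384% of all genes, 0.203% as lower.

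The endothelial sum was 9588 to 10114 CPM in wild-type and 7543 to 9684 CPM in Kdm5c+/- stromal vascular libraries, lowest in replicate 2, and overlapped. There 10 of 10 macrophage and 8 of 8 Schwann cell markers were positive, where 59.4% of all genes were negative. Other lists were mixed: 7 of 9 lymphocyte, 5 of 6 skeletal muscle, 4 of 10 mammary and 3 of 12 progenitor genes were negative. The part of these lists in the result was not tested. Relative to the endothelial sum, Kcnj8 stood at 1.31% to 1.53% in wild type and 0.664% to 1.24% in Kdm5c+/-, without overlap, and the other 9 members overlapped. By this measure 0.943% of all genes separated downward and 20.6% upward. Kcnj8 was the one member of the 10 that stood lower in every Kdm5c+/- library in CPM and relative to the endothelial markers in both fractions, as did 0.0347% of 11526 genes. It was singled out after its values were seen, and this was not tested.

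Partner genes gave no call by limma in either fraction. In mature adipocytes 12 of the 20 smooth muscle genes were high enough to be tested, and Synm, at 6.61, 5.91 and 5.52 CPM in wild type and 2.60, 2.12 and 3.17 CPM in Kdm5c+/-, had a difference of -0.96 ± 0.15 (SE, limma, adjusted p = 0.273). It passed when all 12 libraries were fitted together (adjusted p = 0.0465) and with DESeq2 (adjusted p = 0.000613). The light chain gene Myl9 was at -1.30 (-0.82 without wild-type replicate 2) and the filamin gene Flna, the most abundant of the list, at -0.62, whereas Ldb3 was at 0.88. Of 14 pericyte genes tested there 11 were negative (median -0.39), where 56.9% of all genes were (median -0.03), including the gap junction gene Gja4 at -0.62 (-0.53 to -1.24 over the alternatives), the peptidase gene Anpep at -0.73 and Angpt1 at -0.25.

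Notch pathway genes were negative in 14 of 15 in mature adipocytes (median -0.21) and in 15 of 16 in stromal vascular cells (median -0.23), with 0 called in each. Over all genes 56.9% and 59.4% were negative, with a median of -0.03 in each fraction. The ligand Dll4 was at -0.999, Notch4 at -0.75, the target Heyl at -0.71 (-0.45 without Kdm5c+/- replicate 2) and Notch2 at -0.34 in mature adipocytes. In stromal vascular cells Hey2 was at -0.71, Hey1 at -0.40 and Hes1 at -0.39, and 7 of the 16 genes were lower in every Kdm5c+/- library, against 9.74% of all genes. DESeq2 called Notch4 in mature adipocytes (adjusted p = 0.0171) and Hey2 and Gja4 in stromal vascular cells (adjusted p = 0.0276 and 0.0468). Pdgfb, the ligand of Pdgfrb, was at -0.50 in mature adipocytes and -0.14 in stromal vascular cells, and Pdgfc at -0.68 in mature adipocytes.

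Whether the genotype difference itself differed between fractions was tested in all 12 libraries. For 0 of 10 members and 0% of 14193 genes did it pass by limma, with 2 members and 1267 genes at an unadjusted p below 0.05, and edgeR called 0 of both while DESeq2 called 0 members and 65 genes (0.458%). Both members below that unadjusted p were surface markers with a positive difference, as in 4.24% of all genes: Cspg4 at 1.09 ± 0.42 and Mcam at 0.39 ± 0.15 (SE, limma, mature adipocyte difference minus stromal vascular difference, adjusted p = 0.511 for each). Acta2 was at -1.81 ± 0.86 (adjusted p = 0.575), and Notch3, Pdgfrb, Rgs5 and Abcc9 lay between -0.71 and -0.39. A lower level in one fraction and not in the other is therefore not shown for any of the 10.

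Single libraries stood out in the members' levels, and the share of all genes with the same extremes was not counted. In mature adipocytes Kdm5c+/- replicate 2 was lowest for 7 of 10 members and wild-type replicate 2 highest for 7. In stromal vascular cells Kdm5c+/- replicate 2 was lowest for 6 members yet highest for Acta2, and its Myh11 level of 617 CPM lay inside the wild-type range. Relative to Pdgfrb, Myh11 stood at 1.29 times in that library and 0.552 to 0.823 times in the other 5, and Acta2 at 1.16 times against 0.347 to 0.623 times. The contractile and the receptor genes therefore did not follow one order over the stromal vascular libraries.

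Krt5, a keratin of the mammary myoepithelium, whose cells also make Acta2 and Myh11, ranked the 6 stromal vascular libraries in the same order as Acta2, with the top 2 nearly tied. It was picked out after its values were seen, and stood at 5.19, 11.0 and 15.2 CPM in wild type and 9.16, 15.2 and 3.53 CPM in Kdm5c+/-. The keratin gene Krt14 departed from that order only in having wild-type replicate 1 lowest, before Kdm5c+/- replicate 3. Myh11 had another order, with wild-type replicate 3 highest. The summed level of the 10 mammary genes was 157 to 310 CPM in wild-type and 104.7 to 403 CPM in Kdm5c+/- stromal vascular libraries, and 8 of the 10 were below 1 CPM in all 6 mature adipocyte libraries. Its part in the Acta2 level was not tested.

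**Figure D5:**
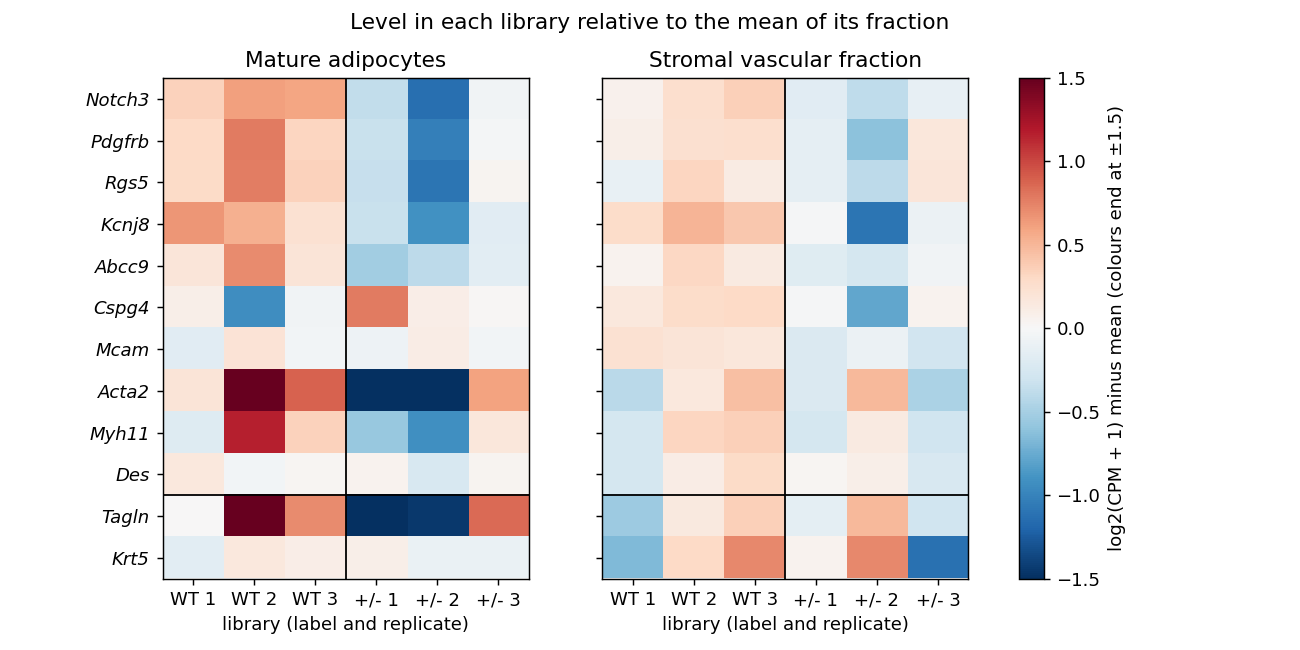
Level of each gene in each library minus its mean over the 6 libraries of the fraction, on the log2(CPM + 1) scale, with red above and blue below the mean and colours ending at ±1.5; columns are libraries by label and replicate, and the rows below the line are Tagln and Krt5. In stromal vascular cells Kdm5c+/- replicate 2 was lowest for 6 of the 10 members and highest for Acta2. The share of all genes lowest there was not counted.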

How the data were processed

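Libraries were strand-specific and prepared using NuGEN's Universal plus mRNA-Seq kit, per the labels' protocols. STAR 2.7.2a, edgeR 3.26.8 and the build GRCm38 were used, per the submitters' processing notes. How reads were counted, with which annotation and strand setting, is not given in the sources used here. Values in the deposited table are CPM, scaled by the authors so that each library sums to 1000000. Of these values 100% were whole multiples of 1 read within 0.05 read, so whole reads were recovered for edgeR and DESeq2.

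Tests used limma 3.58.1 (R 4.3.3; lmFit, then eBayes with its trend and robust options), two-sided, on log2(CPM + 1). Genes needed 1 CPM in 3 or more fitted libraries, and p was adjusted by Benjamini-Hochberg over all genes tested, with 0.05 as the threshold. Genotypes were compared in the 6 libraries of each fraction, and the fractions and the difference of differences in all 12. The pseudocount understates changes of low genes. P-values measure the spread between pools of 2 mice. Alternatives were a pseudocount of 0.25, no filter or a mean of 5 CPM, median-of-ratios and quantile scaling, edgeR 4.0.16, DESeq2 1.42.0, a replicate block, a fit of all 12 libraries and leaving out each library. Fractions with the same label and number correlated positively across genes in all 6 pairs (0.169 to 0.278). Fractions with different numbers were not compared, so the pairing rests on the replicate numbers and was not tested. The main fits of all 12 libraries had no pool term and counted the 2 libraries of a pool as independent. Their SE and p-values are therefore those of an unpaired fit, and a block by pool was among the alternatives.

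Members were all named; of each partner list up to 4 genes per comparison by smallest p were eligible, and the most abundant one. The members and lists were chosen with earlier results of these data known. Partner symbols Gucy1a1 and Gucy1b1 are listed as Gucy1a3 and Gucy1b3. Positions and exon lengths came from GENCODE mouse release 21 and promoters from RefSeq (8 of 10 members matched). The main limma fits, edgeR and DESeq2 were tested on simulated data, drawn as independent libraries with no pool effect. Every simulated gene had the same spread setting, so the simulation cannot show why DESeq2 called more genes here. The other alternatives were not simulated. Tables were read with pandas 2.3.3 and numpy 2.4.6 under Python 3.11.15, and matplotlib 3.10.9 drew the figures.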

Additional observations from a re-analysis of the deposited data

How the results depend on the processing

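The count of 9 members between fractions held under the other pseudocount, filters, scalings and the replicate block (9) and without each library (9 to 9), and was 10 with edgeR and DESeq2, which called Cspg4 too. The count of 0 members called by genotype held under every alternative but DESeq2, which gave 3 in mature adipocytes and 1 in stromal vascular cells (the cause was not tested), and was 0 to 0 over left-out libraries. The replicate block by number gave 0 members by genotype in both fractions, and the block by pool 0 for the difference of differences. Same-numbered libraries of both genotypes correlated at -0.281 to 0.341, and 4 of 12 libraries correlated best with their own number, so genotypes share only a number. Over all genes, calls in mature adipocytes were 0, with 250 by DESeq2, 1 (Synm) with all 12 libraries and 3 without Kdm5c+/- replicate 3. In stromal vascular cells they were 1, with 53 by DESeq2, 4 with all 12 libraries, 0 with the block and 0 without any one library. For the difference of differences they were 0, with 65 by DESeq2 and 7 without the mature adipocyte library of Kdm5c+/- replicate 3. Some signs turned. Mcam by genotype in mature adipocytes was 0.044 with median-of-ratios, 0.039 with edgeR and 0.037 with DESeq2, and -0.083 to 0.104 over left-out libraries. In the difference of differences Kcnj8 was 0.066 with quantile normalization and -0.487 to 0.077 over left-out libraries, Des -0.14 to 0.13, and Pln, 0.57 by limma (adjusted p = 0.509), -1.35 with edgeR and -0.25 with DESeq2. Leaving out libraries gave -0.030 to 0.260 for Cspg4 between fractions, and in stromal vascular cells by genotype -0.416 to 0.062 for Acta2, -0.236 to 0.039 for Des and -0.045 to 0.174 for Pdgfra. Of the members Kcnj8 had the fewest reads, 33 to 156 in the mature adipocyte libraries, and counting error is largest there.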
